A study of Mus musculus with 4 samples.

Results

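The cells described here are the tumour cells with the highest share of mRNA from Ankrd1, Sdpr and Krt18. They were taken from 4 single-cell RNA libraries of transplanted mouse tumours, in which 26135 of 45220 cells passed a tumour gate, and they are the 10% of gated cells with the highest summed count of the 3 genes, 2614 cells in all. The gate required at least 5 UMIs of Krt8, Krt18, Tm4sf1 and Cdkn2a together per 10000 UMIs of the cell, fewer than 5 of Tyrobp, Fcer1g, Cd3e and Cd3g together, no Epcam and at least 300 genes. A UMI is a molecular tag that marks a single captured mRNA molecule, and the lowest share that entered the top 10% was 10.1 UMIs of the 3 ranking genes per 10000. The remaining 23521 gated cells are called the other tumour cells.

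The tumours grew in mice from Py8119, a triple-negative mammary cancer line of mesenchymal shape derived from a tumour of an MMTV-PyMT mouse, in which polyoma middle T drives transformation. The libraries fall into 2 groups of 2, tumours of the genotype Sema4d-shRNA (libraries 1 and 2) and tumours labelled NC with the genotype control (libraries 1 and 2). Sema4d encodes semaphorin 4D, a membrane ligand of plexin-B receptors, and the study asks what the tumour cells' own Sema4D does. The labels do not give the hairpin sequence, the strain, sex or age of the host mice, or how many animals entered a library. P-values of comparisons between the genotypes therefore measure the spread between 2 libraries of a group, which may be technical. Those of the chosen cells against the other tumour cells measure how far the difference within a library varies over the 4 libraries. The labels do not say whether the transduced lines were pools or single clones, and host stroma and immune cells were captured together with the tumour cells.

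Ankrd1 encodes a mechanosensitive ankyrin-repeat protein and is a textbook target of YAP and TAZ, the coactivators that bind TEAD factors at DNA when cells are spread, stretched or stimulated by growth factors. Cyr61, Ctgf and Amotl2 are other widely used targets of the same coactivators, and Amotl2 in turn holds YAP in the cytoplasm. Sdpr, also called Cavin2, encodes a coat protein of caveolae, which are membrane pits that flatten under tension, and Krt18 encodes the type I keratin that pairs with Krt8 in simple epithelia.

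The 250 bases before the start sites of the 3 ranking genes and of 2 further YAP target genes are shown because Ankrd1, Cyr61 and Amotl2 carry the TEAD motif GGAATG in this window. The sequences run 5′ to 3′ on the gene's strand, come from RefSeq on GRCm38.p6, and have GGAATG or its reverse complement CATTCC in capitals.
Ankrd1, chr19:36119845-36120094, minus strand: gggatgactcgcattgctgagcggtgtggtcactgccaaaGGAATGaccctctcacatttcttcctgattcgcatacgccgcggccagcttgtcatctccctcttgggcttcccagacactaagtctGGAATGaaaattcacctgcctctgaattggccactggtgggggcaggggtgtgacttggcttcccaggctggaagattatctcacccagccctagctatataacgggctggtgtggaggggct
Cyr61 (Ccn1), chr3:145649986-145650235, minus strand: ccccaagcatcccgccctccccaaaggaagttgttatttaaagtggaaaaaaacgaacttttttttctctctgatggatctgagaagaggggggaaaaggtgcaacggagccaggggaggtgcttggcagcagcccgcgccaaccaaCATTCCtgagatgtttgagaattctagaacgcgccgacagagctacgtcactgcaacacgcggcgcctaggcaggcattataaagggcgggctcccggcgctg
Amotl2, chr9:102717554-102717803, plus strand: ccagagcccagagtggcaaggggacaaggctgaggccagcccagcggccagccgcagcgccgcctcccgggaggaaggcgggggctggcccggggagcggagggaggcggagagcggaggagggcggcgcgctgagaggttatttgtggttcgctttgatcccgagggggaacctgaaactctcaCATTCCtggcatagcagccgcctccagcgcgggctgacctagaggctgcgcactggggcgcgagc
Sdpr (Cavin2), chr1:51288876-51289125, plus strand: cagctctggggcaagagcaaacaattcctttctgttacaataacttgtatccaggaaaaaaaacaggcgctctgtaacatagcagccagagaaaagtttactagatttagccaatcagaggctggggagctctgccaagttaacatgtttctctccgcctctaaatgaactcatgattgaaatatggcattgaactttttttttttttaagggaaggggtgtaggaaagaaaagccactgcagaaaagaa
Krt18, chr15:102027966-102028215, plus strand: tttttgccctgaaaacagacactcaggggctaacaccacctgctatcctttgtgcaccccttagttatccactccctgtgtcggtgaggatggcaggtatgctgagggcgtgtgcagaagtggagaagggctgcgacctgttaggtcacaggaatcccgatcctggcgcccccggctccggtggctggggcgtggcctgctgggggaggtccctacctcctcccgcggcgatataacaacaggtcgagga
Ankrd1 holds the motif at -210 and -123 from the start of the gene, Cyr61 holds it at -103 and Amotl2 at -65, and these letters do not occur in the Sdpr and Krt18 windows. GGAATG on either strand is present in 12.6% of the 32851 promoter windows of the table, so a match is a description and not a binding site. Of the 10 genes named below as higher in the Ankrd1-high cells, 7 matched a window and 1 of them held the motif, against 3 of the 7 matched genes among the 10 named as lower. On either strand, the AP-1 motif TGANTCA (6.75% of all windows) was found in none of the 7 higher and in 2 of the 7 lower genes, and the CArG box of the serum response factor SRF (1.47% of all windows) in none of either set.

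The libraries held 10575 and 13173 cells (Sema4d-shRNA) and 10874 and 10598 cells (NC), with 83513906 to 119758159 UMIs per library, and the sums over the Ankrd1-high cells of a library rest on 6465170 to 13725960 UMIs. The gate kept 65.8% and 63.4% of the cells of the Sema4d-shRNA libraries and 52.7% and 48.0% of those of the NC libraries. Levels below are CPM, the UMIs of a gene per 1000000 UMIs summed over the cells of a class in a library, and each pair of values gives library 1 and then library 2.

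The cells were chosen by their UMIs of Ankrd1, Sdpr and Krt18, and the values of these genes are given as a description, with no test. Ankrd1 had 935 and 986 CPM (Sema4d-shRNA) and 819 and 906 CPM (NC) in the Ankrd1-high cells, against 123 and 140.2 CPM (Sema4d-shRNA) and 113 and 109 CPM (NC) in the other tumour cells and 25.0 to 42.4 CPM in cells that carry the immune genes of the gate. Sdpr had 367 and 348 CPM (Sema4d-shRNA) and 447 and 424 CPM (NC) in the Ankrd1-high cells, against 127 and 131 CPM (Sema4d-shRNA) and 149.7 and 140.2 CPM (NC) in the other tumour cells. Krt18 had 236 and 275 CPM (Sema4d-shRNA) and 228 and 196 CPM (NC), against 64.3 and 98.1 CPM (Sema4d-shRNA) and 65.1 and 65.9 CPM (NC). All 3 genes were higher in the chosen cells of every library, as the ranking fixes. Krt8, which the gate used and the ranking did not, had 662 and 727 CPM (Sema4d-shRNA) and 681 and 607 CPM (NC) in the Ankrd1-high cells, against 471 and 565 CPM (Sema4d-shRNA) and 487 and 486 CPM (NC) in the other tumour cells. Of the summed score, Ankrd1 made up 59.6%, Sdpr 24.9% and Krt18 15.6%.

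**Figure D1:**
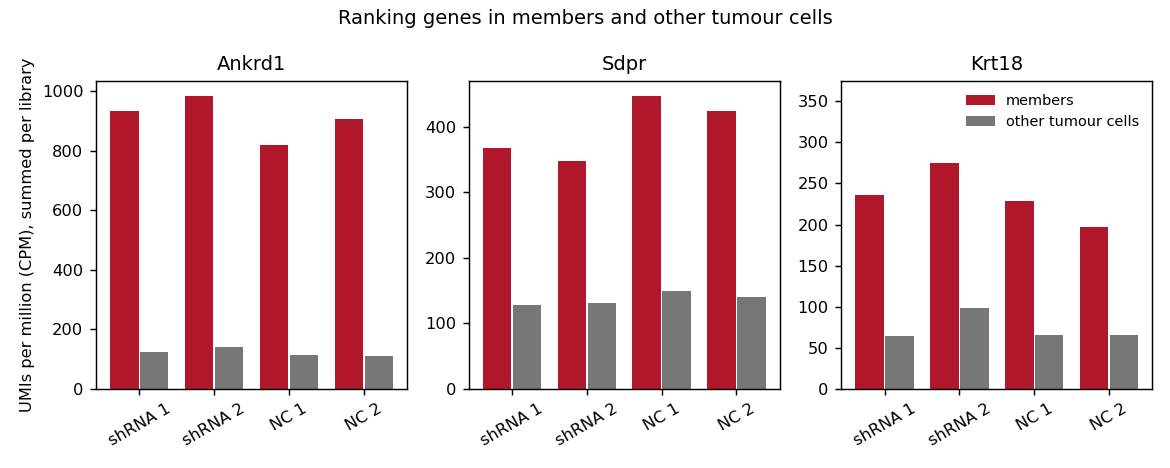
Levels of the ranking genes Ankrd1, Sdpr and Krt18 in CPM, summed per library, in the Ankrd1-high cells (members, red bars) and the other tumour cells (grey bars) of the 2 Sema4d-shRNA and 2 NC libraries; each panel has its own axis from 0. Ankrd1 lies between 819 and 986 CPM in the red bars and between 109 and 140 CPM in the grey bars.

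The limit cuts through a continuous range of scores. The 100th lowest Ankrd1-high cell had 10.3 UMIs of the ranking genes per 10000 and the 100th highest cell outside had 9.89, and 425 Ankrd1-high cells lay within 1 above the limit and 560 cells within 1 below it. The median Ankrd1-high cell had a score of 13.9, the highest 86.0. The score rested on a median of 17 UMIs of the 3 genes in an Ankrd1-high cell and 2 in another tumour cell. The Ankrd1-high cells had a median of 11339.5 UMIs and 2987.5 genes, against 9865 UMIs and 2552 genes in the other tumour cells. Mitochondrial UMIs made up 0.504% in the Ankrd1-high cells and 0.503% in the other tumour cells, and a doublet caller marked 4.17% of the Ankrd1-high cells and 5.38% of the other tumour cells.

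The label under which these cells were proposed calls them keratin-rich. Krt18 was used by the ranking, and without it in the ranking Krt18 was lower in the top 10% in 3 of 4 libraries, so the keratin part of the name follows from the rule. No Krt18 UMI was found in 40.2% of the Ankrd1-high cells, against 64.8% of the other tumour cells. Of the Ankrd1-high cells 11.9% had no UMI of Ankrd1, 13.7% none of Sdpr, and 43.5% had all 3. Over gated cells within a library, Spearman's rho was 0.295 to 0.343 between the shares of Ankrd1 and Sdpr, 0.0540 to 0.139 between Ankrd1 and Krt18 and 0.0214 to 0.106 between Sdpr and Krt18; the cells of a library share its depth and its free RNA, and these are descriptions. When the same gated cells were ranked on Ankrd1 and Sdpr without Krt18, the top 10% had 70.2 and 115 CPM (Sema4d-shRNA) and 88.0 and 77.9 CPM (NC) of Krt18, against 80.6 and 125 CPM (Sema4d-shRNA) and 80.6 and 81.5 CPM (NC) in the rest. Under that ranking Krt8 had 472 and 577 CPM (Sema4d-shRNA) and 559 and 514 CPM (NC) in the top 10%, against 489 and 590.4 CPM (Sema4d-shRNA) and 500.5 and 498 CPM (NC) in the rest, higher in the 2 NC libraries and lower in the 2 Sema4d-shRNA libraries. Other keratins were near 0. Krt19 had 0.720 and 0.656 CPM (Sema4d-shRNA) and 1.502 and 1.24 CPM (NC) in the Ankrd1-high cells, against 0.246 and 1.06 CPM (Sema4d-shRNA) and 1.02 and 0.182 CPM (NC) in the other tumour cells, and its log2 change was 0.47 ± 0.42 (SE; edgeR adjusted p = 0.39). Without Sema4d-shRNA library 2 it passed at 1.23 (edgeR adjusted p = 0.024), and Krt7, at 1.19 with all libraries (adjusted p = 0.056), passed at 1.62 without NC library 1 (adjusted p = 0.046). The 10 mammary epithelial markers together summed to 71.0 and 71.9 CPM (Sema4d-shRNA) and 86.0 and 82.0 CPM (NC), against 99.03 and 101 CPM (Sema4d-shRNA) and 127 and 146 CPM (NC) in the other tumour cells. Of these markers Epcam was at 0 by the gate, and Wap and Elf5 had no UMI in the Ankrd1-high cells. The cells are called Ankrd1-high here, after the gene that made up most of the score. The name does not hold for every subset, as the Ankrd1 values of the cells that passed by Krt18 show below.

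The Ankrd1-high cells split by which ranking gene carried them over the limit. Ankrd1 reached the limit by itself in 894 cells, Krt18 by itself in 224, Sdpr by itself in 138 and more than 1 gene in 40, and 1318 cells passed only through the sum. These subsets were drawn after the data were seen, and their values are descriptions. Ankrd1 had 99.4 and 126 CPM (Sema4d-shRNA) and 45.2 and 146 CPM (NC) in the cells that passed by Krt18. The other tumour cells had 123 and 140.2 CPM (Sema4d-shRNA) and 113 and 109 CPM (NC), so the Krt18 cells were lower except in NC library 2. Ctgf, a secreted matricellular YAP target, had 76.4 and 79.4 CPM (Sema4d-shRNA) and 118 and 84.3 CPM (NC) in the cells that passed by Ankrd1, 4.23 and 20.1 CPM (Sema4d-shRNA) and 16.1 and 6.49 CPM (NC) in those that passed by Krt18 and 19.7 and 31.7 CPM (Sema4d-shRNA) and 28.2 and 24.9 CPM (NC) in the other tumour cells. Hbegf, a membrane-anchored ligand of the EGF receptor, had 475 and 288 CPM (Sema4d-shRNA) and 340.0 and 285 CPM (NC) in the cells that passed by Ankrd1, 71.9 and 102 CPM (Sema4d-shRNA) and 90.4 and 101 CPM (NC) in those that passed by Krt18 and 134 and 93.3 CPM (Sema4d-shRNA) and 83.4 and 85.1 CPM (NC) in the other tumour cells. The Ankrd1 cells lay above the other tumour cells in every library for both Ctgf and Hbegf. The Krt18 cells lay below the other tumour cells in every library for Ctgf and in 1 of 4 for Hbegf. Their Ctgf values rest on only 2 and 17 UMIs (Sema4d-shRNA) and 5 and 2 UMIs (NC), so the direction in a single library is weak.

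Krt8, a gate gene, had 1943 and 1574 CPM (Sema4d-shRNA) and 1285 and 1123 CPM (NC) in the cells that passed by Krt18, 405 and 591 CPM (Sema4d-shRNA) and 476 and 496 CPM (NC) in those that passed by Ankrd1 and 471 and 565 CPM (Sema4d-shRNA) and 487 and 486 CPM (NC) in the other tumour cells. In the 1318 cells that passed only through the sum, Krt8 had 699.8 and 732 CPM (Sema4d-shRNA) and 744 and 649 CPM (NC), above the other tumour cells in every library. Krt18 in the 224 Krt18 cells is fixed by their selection, and Krt8 entered the gate. Cells that passed by Sdpr had 32.0 and 33.6 CPM (Sema4d-shRNA) and 133 and 60.4 CPM (NC) of Ctgf and 252 and 315 CPM (Sema4d-shRNA) and 242 and 141 CPM (NC) of Hbegf, both above the other tumour cells in every library. For Ctgf these values rest on only 8 and 13 UMIs (Sema4d-shRNA) and 43 and 12 UMIs (NC). Depth differed between the subsets: the median cell had 11012.5 to 13685 UMIs in the Ankrd1 subset and 5377.5 to 8694 in the Krt18 subset, against 8917 to 10720 in the other tumour cells, and the part of depth in these values was not tested.

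**Figure D2:**
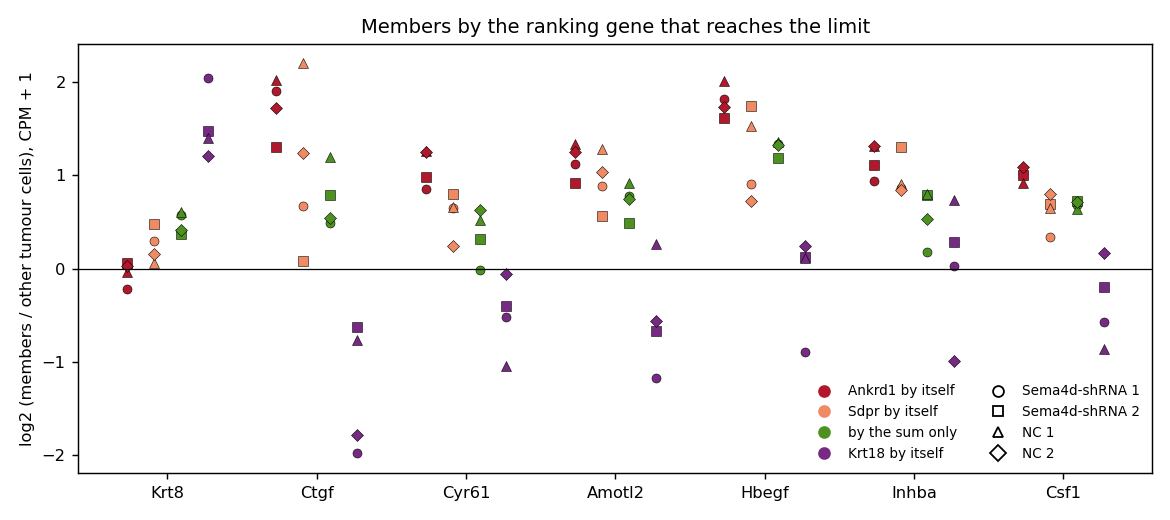
Log2 ratio of CPM + 1 in subsets of the Ankrd1-high cells over the other tumour cells of the same library, for 7 genes; colours give the ranking gene that reached the limit by itself (or the sum only) and symbols the library. Krt8 is highest in the Krt18 subset (purple), where Ctgf lies below the other tumour cells in all 4 libraries and Hbegf in 1 of 4. Ctgf in that subset rests on 2 to 17 UMIs per library.

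In tests of genes that the gate and the ranking did not use, much of the transcriptome differed between the Ankrd1-high cells and the other tumour cells. Counts were summed per library and class and fitted with edgeR's quasi-likelihood test with the library as a block. Of 13546 genes tested, 2779 (20.5%) were higher and 2935 (21.7%) lower in the Ankrd1-high cells at an adjusted p under 0.05, and 48.6% had an unadjusted p under 0.05. The cells were split on mRNA counts of the same cells, so any gene that varies with the 3 ranking genes, with depth or with cell state can pass, and nothing is read from these totals. As a narrower comparison, added after the data were seen, the Ankrd1-high cells were also set against the 2613 cells of the next 10% of the score (6.82 to 10.1 per 10000), whose median of 12091 UMIs and 2974 genes per cell is close to theirs. Against these, 237 of 11599 genes (2.04%) were higher and 304 (2.62%) lower, 4.66% in all. The median log2 change over all genes tested was -0.017 against all other tumour cells and 0.00053 against the next 10%.

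The classical YAP targets were higher. Ctgf had 43.9 and 61.9 CPM (Sema4d-shRNA) and 80.9 and 54.3 CPM (NC) in the Ankrd1-high cells, against 19.7 and 31.7 CPM (Sema4d-shRNA) and 28.2 and 24.9 CPM (NC) in the other tumour cells. The groups did not overlap, and the log2 change was 1.08 ± 0.079 (SE; edgeR adjusted p = 3.2e-07) against all other tumour cells and 0.65 ± 0.12 (SE; edgeR adjusted p = 0.035) against the next 10%. Cyr61 had 271 and 434 CPM (Sema4d-shRNA) and 346 and 401 CPM (NC) in the Ankrd1-high cells, against 213 and 283 CPM (Sema4d-shRNA) and 208 and 216 CPM (NC) in the other tumour cells. Cyr61, like Ctgf a secreted matrix-associated protein that binds integrins, was higher in all 4 libraries, though its lowest Ankrd1-high value lies below the highest of the other tumour cells; its log2 change was 0.54 ± 0.11 (SE; edgeR adjusted p = 0.026), and 0.40 ± 0.035 (SE; edgeR adjusted p = 4.7e-13) against the next 10%. The first of these calls was lost without NC library 1 (0.52) or Sema4d-shRNA library 2 (0.57). Amotl2 had 55.4 and 60.1 CPM (Sema4d-shRNA) and 83.9 and 75.8 CPM (NC) in the Ankrd1-high cells, against 29.9 and 38.1 CPM (Sema4d-shRNA) and 40.2 and 38.8 CPM (NC) in the other tumour cells. The groups did not overlap for Amotl2 either, with a log2 change of 0.78 ± 0.057 (SE; edgeR adjusted p = 4.1e-11), and 0.36 ± 0.054 (SE; edgeR adjusted p = 1.8e-07) against the next 10%. Vgll3, a cofactor that binds TEAD in place of YAP, had 15.2 and 13.6 CPM (Sema4d-shRNA) and 12.3 and 15.2 CPM (NC) in the Ankrd1-high cells, against 6.11 and 6.01 CPM (Sema4d-shRNA) and 6.51 and 6.46 CPM (NC) in the other tumour cells, and its log2 change of 1.06 ± 0.092 (SE; edgeR adjusted p = 9.0e-11) was 0.67 ± 0.11 (SE; edgeR adjusted p = 3.2e-06) against the next 10%.

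Not all of the YAP list followed. Of its 30 genes, Ankrd1 was used by the ranking and 28 were tested. Of the 28, 15 (53.6%) were higher, 6 (21.4%) lower and 7 did not pass, with a median log2 change of 0.18. Of all genes tested, 20.5% were higher and 21.7% lower. Among the higher ones were Ajuba, a LIM protein that restrains LATS kinases (log2 change 0.80), Ccnd1, the G1 cyclin (0.44), Lats2, a kinase that inactivates YAP (0.38), and the receptor kinase Axl (0.19). Against the next 10% 7 of 28 (25.0%) were higher and 1 (3.57%), Lgals3, was lower, where 2.04% and 2.62% of all genes were. The median was 0.17, and the 7 were Ctgf, Cyr61, Amotl2, Crim1, Gadd45a, Frmd6 and Igfbp3. Igfbp3, a secreted IGF carrier, changed direction with the comparison: its log2 change was -1.78 ± 0.40 (SE; edgeR adjusted p = 0.038) against all other tumour cells and 1.66 ± 0.36 (SE; edgeR adjusted p = 0.0079) against the next 10%. It had 0.480 and 11.4 CPM (Sema4d-shRNA) and 0.683 and 0.619 CPM (NC) in the Ankrd1-high cells, so Sema4d-shRNA library 2 stood apart. Among 19 pathway components 5 (26.3%) were higher and 3 (15.8%) lower, near the 20.5% and 21.7% of all genes. The coactivator genes themselves were not among the higher ones, with log2 changes of -0.11 (edgeR adjusted p = 0.1) for Yap1 and -0.32 for Wwtr1, which encodes TAZ and fell (adjusted p = 7.3e-09).

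Across the whole range of scores the summed YAP list, with Ankrd1 left out, climbed in steps. It was 27.1 ± 0.305 UMIs per 10000 in the 5963 cells with no UMI of a ranking gene (SD over 4 libraries), 33.0 ± 1.16 in the band just under the limit and 35.2 ± 0.718 in the Ankrd1-high cells. Cells with a score of 0 had a median of 5214 UMIs, under the 11339.5 of the Ankrd1-high cells.

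Hbegf had the largest log2 change of the 10 genes named as higher. Hbegf had 373 and 241 CPM (Sema4d-shRNA) and 248.7 and 234 CPM (NC) in the Ankrd1-high cells, against 134 and 93.3 CPM (Sema4d-shRNA) and 83.4 and 85.1 CPM (NC) in the other tumour cells. The lowest Ankrd1-high value, in NC library 2, exceeded the highest of the other tumour cells, and the log2 change was 1.37 ± 0.037 (SE; edgeR adjusted p = 5.4e-22), and 0.61 ± 0.035 (SE; edgeR adjusted p = 4.8e-36) against the next 10%. Nrg1, the neuregulin ligand of ErbB3 and ErbB4, was also higher, by 0.68, and 0.34 against the next 10% (edgeR adjusted p = 0.0017). The receptor Egfr (0.045, adjusted p = 0.67) and the ligand Areg (-0.068, adjusted p = 0.6) did not pass. Of the 15 tested genes of the EGF list, 4 (26.7%) were higher and 2 (13.3%) lower, where 20.5% and 21.7% of all genes were. Against the next 10% 4 of 12 (33.3%) were higher, where 2.04% of all genes were, and none lower. The 4 were Hbegf, Nrg1 and the feedback genes Phlda1 and Errfi1. Csf1 had 296 and 287 CPM (Sema4d-shRNA) and 259.6 and 281 CPM (NC) in the Ankrd1-high cells, against 173 and 162 CPM (Sema4d-shRNA) and 159.7 and 155 CPM (NC) in the other tumour cells. Csf1 encodes the macrophage growth factor, and its values did not overlap, with a log2 change of 0.68 ± 0.035 (SE; edgeR adjusted p = 1.3e-15) and 0.31 ± 0.033 against the next 10%.

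TGF-beta family genes moved in both directions. Inhba had 73.2 and 88.9 CPM (Sema4d-shRNA) and 68.4 and 60.6 CPM (NC) in the Ankrd1-high cells, against 49.9 and 46.4 CPM (Sema4d-shRNA) and 34.4 and 33.2 CPM (NC) in the other tumour cells. Inhba, which encodes the subunit of activin A, was higher by 0.73 ± 0.059 (SE; edgeR adjusted p = 2.7e-09), without overlap between the groups, and by 0.34 ± 0.052 against the next 10%. The ligand gene Bmp4 was higher by 0.46 and 0.24 in the same 2 comparisons. The BMP targets Id1 (-0.79) and Id3 (-0.67) and the ligand Tgfb3 (-1.11) fell. Of 28 tested genes of this list 4 (14.3%) were higher and 12 (42.9%) lower, where 20.5% and 21.7% of all genes were. Against the next 10% 3 of 27 (11.1%) were higher and 4 (14.8%) lower, where 2.04% and 2.62% of all genes were.

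Among AP-1 and immediate early genes, Fosl1 rose and most others fell. Fosl1 had 246 and 149 CPM (Sema4d-shRNA) and 189 and 178 CPM (NC) in the Ankrd1-high cells, against 135 and 90.2 CPM (Sema4d-shRNA) and 102 and 90.4 CPM (NC) in the other tumour cells. Fosl1 encodes the AP-1 subunit Fra-1; the log2 change was 0.75 ± 0.040 (SE; edgeR adjusted p = 4.4e-15), and 0.30 ± 0.037 against the next 10%. Myc was higher by 0.66 and 0.27. Fos (-0.61), Junb (-0.70) and the phosphatase gene Dusp1 (-1.01), genes that are switched on within minutes of a stimulus or of tissue handling, fell. Of 22 tested genes 3 (13.6%) were higher and 15 (68.2%) lower, where 20.5% and 21.7% of all genes were. In the comparison with the next 10%, 5 (22.7%) were higher and 7 (31.8%) lower, where 2.04% and 2.62% of all genes were. Egr1 fell by 0.25 on the log2 scale against all other tumour cells and was higher by 0.14 against the next 10% (edgeR adjusted p = 0.04).

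Of the other genes named by the size of their change, Plk2 had 82.3 and 120.2 CPM (Sema4d-shRNA) and 114 and 113 CPM (NC) in the Ankrd1-high cells, against 48.9 and 65.2 CPM (Sema4d-shRNA) and 49.7 and 49.1 CPM (NC) in the other tumour cells. Plk2 encodes a polo-like kinase; its log2 change was 0.90 ± 0.084 (SE; edgeR adjusted p = 8.1e-05), and 0.41 ± 0.046 against the next 10%. Tnfrsf12a had 555 and 456 CPM (Sema4d-shRNA) and 436 and 433 CPM (NC) in the Ankrd1-high cells, against 327 and 279 CPM (Sema4d-shRNA) and 232 and 225 CPM (NC) in the other tumour cells. This gene encodes Fn14, the receptor of the cytokine TWEAK, and was higher by 0.73 and, against the next 10%, by 0.20. Dkc1 for dyskerin, Fabp5 for a fatty acid carrier and Tmem97 for a sterol-regulated membrane protein completed the 10 highest, at 0.72, 0.70 and 0.69, and kept 0.18, 0.097 and 0.20 against the next 10%. Rnd1, whose product binds plexin-B receptors, was lower in level but changed as much: it had 12.5 and 7.29 CPM (Sema4d-shRNA) and 9.69 and 11.4 CPM (NC) in the Ankrd1-high cells, against 4.98 and 3.27 CPM (Sema4d-shRNA) and 3.49 and 2.82 CPM (NC) in the other tumour cells. Its log2 change was 1.35 ± 0.13 (SE; edgeR adjusted p = 5.3e-10), and 0.47 ± 0.13 (SE; edgeR adjusted p = 0.015) against the next 10%. Rnd1 was the 1 gene of 19 tested (5.26%) in the semaphorin 4D list that passed there, near the 4.66% of all genes. Against all other tumour cells 5 of the 19 (26.3%) were higher and 7 (36.8%) lower. Of all genes, 20.5% were higher and 21.7% lower in that comparison.

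**Figure D3:**
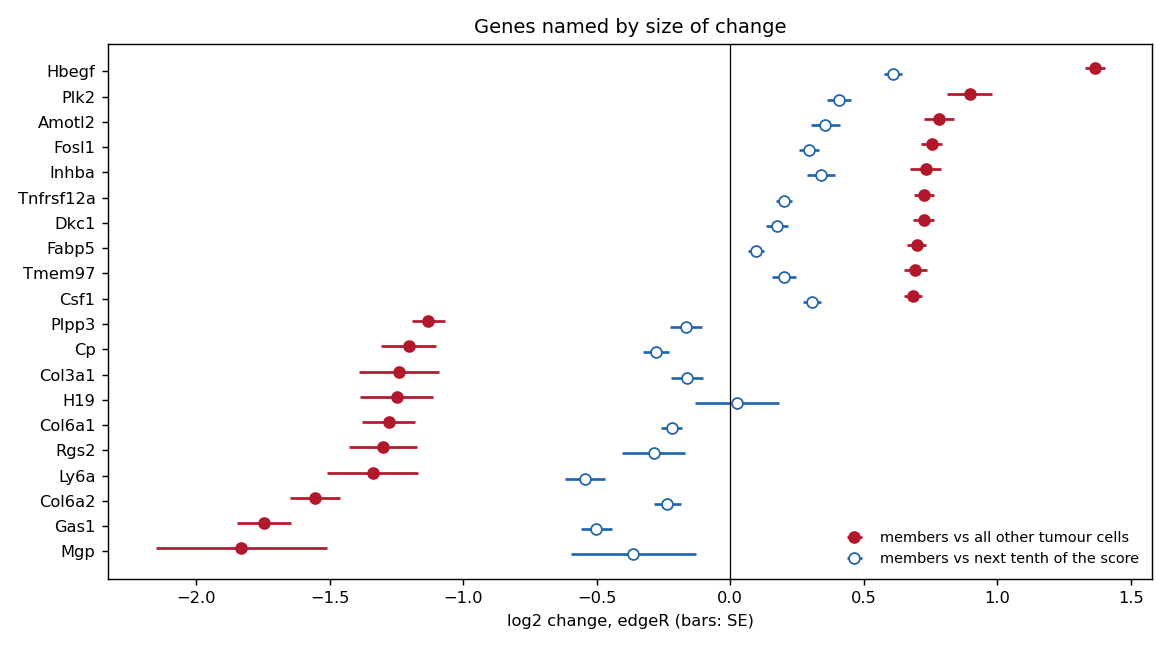
Log2 change with its SE (bars) of the 10 highest and 10 lowest called genes at 50 CPM or more, in the Ankrd1-high cells (members) against all other tumour cells (filled red) and against the next 10% of the score (open blue). The open points put Hbegf at 0.61 (first comparison 1.37), Fabp5 at 0.097 (0.70), Gas1 at -0.50 (-1.75) and H19 at 0.025 (-1.25).

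Cytoskeletal genes of the SRF programme rose by small amounts. Of 34 tested, 21 (61.8%) were higher and 3 (8.82%) lower, where 20.5% and 21.7% of all genes were, and the median log2 change was 0.16. Against the next 10% 8 (23.5%) were higher, where 2.04% of all genes were, and none lower (median 0.07). Actb rose by 0.28, Actg1 by 0.22, tropomyosin Tpm1 by 0.44, the LIM protein gene Fhl2 by 0.43 and Srf itself by 0.55. Fhl2 and Srf also passed against the next 10%, at 0.24 and 0.28 (edgeR adjusted p = 0.011 for Srf), and Tpm1 did not (0.081, adjusted p = 0.076).

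Sdpr was not accompanied by the rest of the caveolar coat. Of 7 tested genes of that list, 1 (14.3%) was higher and 5 (71.4%) lower, where 20.5% and 21.7% of all genes were. Cav1 fell by 0.35 on the log2 scale, Cav2 by 0.17 and Prkcdbp, which encodes cavin-3, by 0.40. Ptrf, the cavin-1 gene, had a log2 change of -0.26 and did not pass (edgeR adjusted p = 0.21). Against the next 10% 1 of the 7 (14.3%) was lower, where 2.62% of all genes were, and none higher.

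Keratin, desmosome and epithelial genes outside the rule were mostly too low to test. Of the 20 keratin and desmosome genes, 9 passed the filter on low counts. The plaque genes Pkp2 (0.70), Pkp4 and Plec were higher (33.3%) and Pkp1 was lower (11.1%), where 20.5% and 21.7% of all genes were. None of 6 passed against the next 10%. Of 20 epithelial junction genes 6 were tested, with 1 higher (Cgn, 16.7%) and 1 lower (F11r, 16.7%), near the shares of all genes. Among 18 tested mesenchymal genes 2 (11.1%) were higher and 12 (66.7%) lower. In the comparison with the next 10%, 2 of 17 (11.8%) were higher and 1 (5.88%) lower (median -0.06). Of all genes, 2.04% were higher and 2.62% lower there. Snai2, the transcription factor Slug, rose by 0.83, and by 0.38 against the next 10%, whereas Snai1, its relative Snail, fell by 1.11, and by 0.30 against the next 10%. Vim changed by -0.17, and Fn1 by -0.84, but by -0.086 against the next 10%, where it did not pass (edgeR adjusted p = 0.054).

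Of 26 tested collagen and matrix genes, 17 (65.4%) were lower and 2 (7.69%) higher against all other tumour cells, with a median log2 change of -0.48. Of all genes tested, 21.7% were lower and 20.5% higher. Gas1 had 46.5 and 43.1 CPM (Sema4d-shRNA) and 39.9 and 50.3 CPM (NC) in the Ankrd1-high cells, against 137 and 108 CPM (Sema4d-shRNA) and 152 and 181 CPM (NC) in the other tumour cells. Gas1, a cell-surface protein of growth-arrested cells, did not overlap between the groups and fell by 1.75 ± 0.10 on the log2 scale (SE; edgeR adjusted p = 3.0e-05), and by 0.50 ± 0.059 against the next 10%. Mgp had 70.2 and 85.7 CPM (Sema4d-shRNA) and 57.1 and 75.2 CPM (NC) in the Ankrd1-high cells, against 318 and 150.4 CPM (Sema4d-shRNA) and 237 and 318 CPM (NC) in the other tumour cells. Mgp, the calcification inhibitor matrix Gla protein, fell by 1.83 ± 0.32 (adjusted p = 0.023); the call was lost without Sema4d-shRNA library 1 (-1.68), NC library 1 (-1.74) or NC library 2 (-1.73), and it did not pass against the next 10% (-0.36, adjusted p = 0.62). Col6a2 had 76.8 and 55.4 CPM (Sema4d-shRNA) and 57.5 and 65.0 CPM (NC) in the Ankrd1-high cells, against 220.4 and 118 CPM (Sema4d-shRNA) and 179.9 and 198 CPM (NC) in the other tumour cells. The collagen VI gene Col6a2 changed by -1.55 and its partner Col6a1 by -1.28, and by -0.24 and -0.22 against the next 10%.

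Ly6a, the surface antigen Sca-1, changed by -1.34 and by -0.54 against the next 10%. Rgs2 (-1.30), the imprinted non-coding RNA H19 (-1.25), Col3a1 (-1.24), the copper ferroxidase gene Cp (-1.20) and the lipid phosphatase gene Plpp3 (-1.13) completed the 10 lowest. Of these, Cp alone passed against the next 10%, at -0.28, and H19 then stood at 0.025 (edgeR adjusted p = 0.97). The call of Col3a1 was lost without Sema4d-shRNA library 1 (-1.24) or NC library 2 (-1.28). Of 23 collagen and matrix genes tested against the next 10%, 2 (8.70%) were lower and 1 (4.35%) higher (median -0.02), where 2.62% and 2.04% of all genes were.

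Proliferation genes were higher against all other tumour cells, and almost none passed against the next 10%. All 30 S phase genes and 34 of 35 G2 and M phase genes (97.1%) rose, where 20.5% of all genes did, with medians of 0.48 and 0.51. Among them were Mki67 (0.55), Cdk1 (0.48) and the ribonucleotide reductase gene Rrm2 (0.83). Against the next 10% 1 S phase gene (3.33%) was higher and 1 G2 and M phase gene (2.86%) lower, near the 2.04% and 2.62% of all genes. Mki67 stood at 0.0045 there (edgeR adjusted p = 0.98). The summed G2 and M genes were 6.36 ± 1.10 UMIs per 10000 at a score of 0 (SD over 4 libraries), 19.04 ± 3.23 in the middle band, 25.4 ± 2.35 in the band under the limit and 25.1 ± 1.60 in the Ankrd1-high cells. The summed S phase genes were 14.8 ± 1.41 in the band under the limit and 15.7 ± 1.27 in the Ankrd1-high cells.

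Cholesterol synthesis genes were mostly higher, and hypoxia and interferon genes mostly lower. Of 22 cholesterol genes 16 (72.7%) rose, Idi1 by 0.61, where 20.5% of all genes rose and 21.7% fell. Against the next 10% 1 (4.55%) was higher, where 2.04% of all genes were, and Idi1 stood at 0.12 (edgeR adjusted p = 0.29). Of 20 hypoxia genes 15 (75.0%) fell, carbonic anhydrase Car9 by 0.86 on the log2 scale and Ndrg1 by 0.77, and 3 (15.0%) fell against the next 10%, Car9 among them. Of 34 interferon-stimulated genes 23 (67.6%) fell, Irf7 by 0.75 and B2m by 0.37, and 5 (14.7%) fell against the next 10%, where 2.62% of all genes were lower. Of 34 ribosomal protein genes 29 (85.3%) fell against all other tumour cells (median -0.20) and 19 (55.9%) against the next 10% (median -0.09).

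Among stress genes, 10 of 26 (38.5%) in the integrated stress and unfolded protein list were higher and 5 (19.2%) lower, where 20.5% and 21.7% of all genes were. Against the next 10% 1 (3.85%) was higher and 1 (3.85%) lower, where 2.04% and 2.62% of all genes were. Atf4, the transcription factor of the amino-acid response, was higher by 0.42 ± 0.096 (SE; edgeR adjusted p = 0.033), and the asparagine synthetase gene Asns by 0.58; without NC library 1 the call of Atf4 was lost (0.40). Heat shock chaperones split, with 7 of 16 (43.8%) higher, such as Hsp90aa1 (0.46), and 6 (37.5%) lower, such as Cryab (-0.70). Integrin and focal adhesion genes split too, 8 (29.6%) higher and 7 (25.9%) lower of 27, near the 20.5% and 21.7% of all genes. Of 13 mitochondrially encoded genes 3 (23.1%) were lower, also near the 21.7% of all genes.

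**Figure D4:**
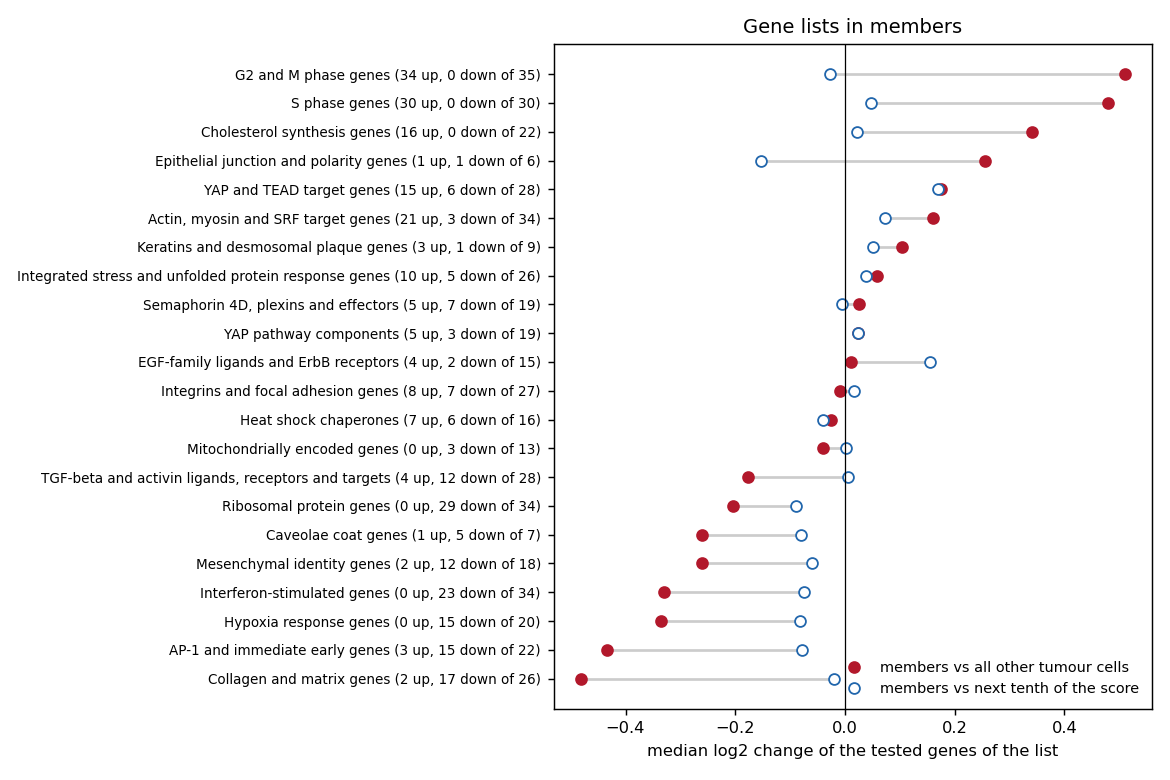
Median log2 change of the tested genes of each of the 22 lists in the Ankrd1-high cells (members), against all other tumour cells (filled red) and against the next 10% of the score (open blue); labels give how many of the tested genes were called higher and lower in the first comparison. Of all genes tested, 20.5% were called higher and 21.7% lower in the first comparison. The medians against the next 10% are 0.048 for S phase, 0.021 for cholesterol, -0.02 for collagen and 0.17 for YAP target genes.

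Transcripts of other cell types were low in the Ankrd1-high cells. For immune markers this is partly fixed by the rule. The gate limited Tyrobp and Fcer1g, of the macrophage list, and Cd3e and Cd3g, of the T and NK list. The same genes chose the cells that carry the immune genes. The 12 macrophage markers summed to 216 and 228 CPM (Sema4d-shRNA) and 456 and 576 CPM (NC) in the Ankrd1-high cells, against 224 and 234 CPM (Sema4d-shRNA) and 487 and 621 CPM (NC) in the other tumour cells and 26873 to 38793 CPM in cells that carry the immune genes. Fibroblast markers summed to 16.0 and 9.69 CPM (Sema4d-shRNA) and 10.6 and 12.8 CPM (NC) in the Ankrd1-high cells, against 32.0 and 21.0 CPM (Sema4d-shRNA) and 30.9 and 35.3 CPM (NC) in the other tumour cells, pericyte markers to 7.65 to 10.6 CPM against 18.5 to 27.3 CPM, and endothelial markers to 8.33 to 13.9 CPM against 16.3 to 25.4 CPM. These 3 sums were lower in the Ankrd1-high cells of every library, as were the matrix genes above, and their part in those results was not tested. Des and Higd1b, of the pericyte list, had no UMI in the Ankrd1-high cells of any library, and Lum, of the fibroblast list, had none in 3 of 4. T and NK markers reached 4.18 to 12.6 CPM, neutrophil markers 1.75 to 9.96 CPM and dendritic markers 0.12 to 0.874 CPM in the Ankrd1-high cells.

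No difference between the genotypes in the share of Ankrd1-high cells exceeded the spread of the libraries. It was 7.83% (545 of 6963 cells; exact Clopper-Pearson 95% interval 7.21% to 8.48%) and 13.2% (1105 of 8355; 12.5% to 14.0%) in the Sema4d-shRNA libraries. It was 8.45% (484 of 5727; 7.74% to 9.20%) and 9.43% (480 of 5090; 8.64% to 10.3%) in the NC libraries. The intervals cover counting error only. The Sema4d-shRNA libraries held both the lowest and the highest share, with means of 10.5 ± 3.82% in Sema4d-shRNA and 8.94 ± 0.692% in NC (SD, n = 2 each) and a two-sided exact permutation p of 1.0, where 0.333 is the smallest that 2 against 2 allows. Without Sema4d-shRNA library 2 the difference of 1.59 percentage points changed sign to -1.11.

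The targeted gene was weakly detected. Sema4d had 4.92 and 7.07 CPM (Sema4d-shRNA) and 8.33 and 7.73 CPM (NC) in the Ankrd1-high cells and 4.13 and 5.70 CPM (Sema4d-shRNA) and 6.77 and 7.80 CPM (NC) in the other tumour cells. Both Sema4d-shRNA values lay below both NC values in each class, but the log2 change in the Ankrd1-high cells was -0.36 ± 0.24 (SE; edgeR adjusted p = 0.95) and did not pass, and its difference from that in the other tumour cells was 0.12 ± 0.22 (SE; adjusted p = 0.97). Between the Ankrd1-high cells and the other tumour cells, no change passed in Sema4d (0.12 ± 0.11 (SE), edgeR adjusted p = 0.41), or in its receptor genes Plxnb2 (-0.093, adjusted p = 0.11) and Plxnb1 (0.052, adjusted p = 0.88).

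Within the Ankrd1-high cells, few genes separated the genotypes. Of 11142 genes tested by edgeR, 5 were higher (0.0449%) and 16 lower (0.144%) in Sema4d-shRNA than in NC, and 695 (6.24%) had an unadjusted p under 0.05. Of these 21 genes, 14 were also called in the other tumour cells, which is 66.7% of the 21 and 19.2% of the 73 called there; the same libraries give both. None of the 27 tested YAP target genes was called. Hbegf changed by 0.36 ± 0.20 (SE; edgeR adjusted p = 0.94), Ctgf by -0.32 ± 0.25 (SE; edgeR adjusted p = 0.96), Inhba by 0.36 ± 0.12 (SE; edgeR adjusted p = 0.55) and Amotl2 by -0.44 ± 0.11 (SE; edgeR adjusted p = 0.18). Without Sema4d-shRNA library 2, Hbegf (0.64), Ctgf (-0.62), Cyr61 (-0.45), Amotl2 (-0.52) and Fosl1 (0.43) passed. Inhba (0.50) and Asns (-0.43) passed without Sema4d-shRNA library 1. In either case the Sema4d-shRNA arm is then 1 library, assumed to vary like the NC libraries. With all 4 libraries, these values show that a genotype difference was not detectable with 2 libraries a group, and not that it is absent.

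Ppp2cb, a catalytic subunit gene of protein phosphatase 2A, had 51.9 and 49.1 CPM in the Ankrd1-high cells of the Sema4d-shRNA libraries, against 24.4 and 26.3 CPM in those of the NC libraries. Its log2 change of 1.02 ± 0.12 (SE; edgeR adjusted p = 1.0e-03) was 0.99 in the other tumour cells. The endosomal GTPase gene Rab21 had 48.2 and 44.4 CPM in Sema4d-shRNA, against 24.3 and 28.5 CPM in NC, a log2 change of 0.83 ± 0.13 (SE; edgeR adjusted p = 0.0096). The remaining higher genes at 20 CPM or more were Erdr1 (0.86, adjusted p = 0.0096) and 1810011O10Rik (0.62, adjusted p = 0.028), and the fifth was the low-level Gm43291. All 5 calls were lost without NC library 1, where Ppp2cb stood at 0.96 and Rab21 at 0.72, and all but that of Ppp2cb without NC library 2.

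Of the 10 lower genes named, 7 were transcripts that immune cells carried at far higher levels. C1qa, a chain of complement C1q, had 26.4 and 25.5 CPM in the Ankrd1-high cells of the Sema4d-shRNA libraries, against 57.6 and 77.2 CPM in those of the NC libraries, with a log2 change of -1.35 ± 0.14 (SE; edgeR adjusted p = 4.8e-04). C1qb (-1.32), C1qc (-1.34), Lyz2 (-1.17), Apoe (-1.17), Arg1 (-1.09) and Ctss (-0.90) fell with it. The call of Arg1 was lost without NC library 1 (-1.04), and that of Ctss without NC library 1 (-1.11) or NC library 2 (-0.66) and with the replicate block (edgeR adjusted p = 0.054). Immune-gated cells carried these 7 genes at 67.8 to 118 times the level in the Ankrd1-high cells, and the macrophage sum of the Ankrd1-high cells was itself lower in the Sema4d-shRNA libraries (216 and 228 CPM) than in the NC libraries (456 and 576 CPM). The part of free RNA or of captured macrophages in these calls was not tested.

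The other named genes were lower in Sema4d-shRNA without that excess, at 0.327 to 2.76 times in immune-gated cells. Gstp1, a glutathione transferase, had 27.4 and 26.7 CPM in Sema4d-shRNA, against 48.5 and 54.8 CPM in NC. Its log2 change was -0.91 ± 0.12 (SE; edgeR adjusted p = 0.0027). mt-Nd5, a mitochondrially encoded subunit of complex I, changed by -1.33 ± 0.14 (SE; edgeR adjusted p = 6.2e-04) and Nkain2 by -0.90 ± 0.13 (SE; edgeR adjusted p = 0.026). The 12 tested genes of the mitochondrial genome all stood lower in Sema4d-shRNA here, with a median log2 change of -0.87. Of the 12, 2 (16.7%) were called, where 0.144% of all genes were called lower. The drop was not particular to these cells. In the other tumour cells all 13 tested genes stood lower, with a median log2 change of -1.07. Of the 13, 3 (23.1%) were called there, where 0.397% of all genes were called lower. Mitochondrial UMIs made up 0.319% and 0.441% of the Ankrd1-high cells' UMIs in the Sema4d-shRNA libraries, against 0.699% and 0.657% in the NC libraries. The other tumour cells had 0.299% and 0.414% (Sema4d-shRNA) and 0.740% and 0.686% (NC). The part of this share in the call of mt-Nd5 was not tested. The call of Gstp1 was lost without either NC library, that of mt-Nd5 without NC library 1 and that of Nkain2 without NC library 2.

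A direct test of whether the genotype difference in the Ankrd1-high cells departs from that in the other tumour cells called 39 of 13546 genes by edgeR (0.288%), 20 in the positive (0.148%) and 19 in the negative direction (0.140%). Slpi, a secreted protease inhibitor, stood out. It had 42.8 and 14.7 CPM (Sema4d-shRNA) and 7.10 and 9.90 CPM (NC) in the Ankrd1-high cells and 124 and 42.9 CPM (Sema4d-shRNA) and 67.3 and 69.4 CPM (NC) in the other tumour cells, and the difference of the log2 changes was 1.47 ± 0.14 (SE; edgeR adjusted p = 4.9e-07). In the Ankrd1-high cells both Sema4d-shRNA values lay above both NC values, while in the other tumour cells they lay on either side of them. With cells of 3000 or more UMIs thinned to 3000 and ranked again, the difference changed sign to -0.40 and did not pass (edgeR adjusted p = 0.93), and the call was also lost against the next 10%. Fst, the activin-binding protein follistatin, had 42.2 and 22.6 CPM (Sema4d-shRNA) and 17.2 and 18.3 CPM (NC) in the Ankrd1-high cells and 19.5 and 12.5 CPM (Sema4d-shRNA) and 17.8 and 17.8 CPM (NC) in the other tumour cells, a difference of 0.98 ± 0.14 (SE; edgeR adjusted p = 3.1e-04); Sema4d-shRNA library 1 was the highest in both classes, and this call was lost under the same 2 settings.

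In the negative direction, the 5 genes named by adjusted p were Rsad2, Atf4, Rps12, Mthfd2 and Psph; Asns, Chac1 and Trib3 were added for their role after the values were seen. Of the 26 tested genes of the integrated stress and unfolded protein list, 4 (15.4%) were called in this direction, against the 0.140% of all genes, and none in the other. The interferon-stimulated list had 3 of 34 tested genes (8.82%) called in this direction and none in the other. Atf4 had 420.5 and 371 CPM (Sema4d-shRNA) and 339 and 367 CPM (NC) in the Ankrd1-high cells and 328 and 288 CPM (Sema4d-shRNA) and 225 and 214 CPM (NC) in the other tumour cells, a difference of -0.35 ± 0.060 (SE; edgeR adjusted p = 0.0041). Both Sema4d-shRNA values lay above both NC values in each class, by a wide margin in the other tumour cells and by a narrow one in the Ankrd1-high cells. Mthfd2, a mitochondrial folate enzyme, had 194 and 124 CPM (Sema4d-shRNA) and 154 and 158 CPM (NC) in the Ankrd1-high cells and 133 and 84.2 CPM (Sema4d-shRNA) and 86.4 and 75.0 CPM (NC) in the other tumour cells, a difference of -0.42 ± 0.076 (SE; edgeR adjusted p = 0.0055). Psph, Asns, Chac1 and Trib3, of serine synthesis, asparagine synthesis, glutathione breakdown and ATF4 feedback, differed by -0.36, -0.38, -0.52 and -0.47 (adjusted p = 0.011, 0.013, 0.011 and 0.045). All 6 calls of these genes were lost without NC library 2, where Atf4 stood at -0.24, Mthfd2 at -0.30 and Chac1 at -0.34. Those of Psph and Asns were also lost without NC library 1 and with DESeq2. All 6 were lost against the next 10%, where Atf4 stood at -0.09. With the other tumour cells limited to the next 10%, 3 genes were called in place of 39, of which 1 was among the 39. Thinning to 3000 UMIs likewise left 3 genes called, of which 1 was among the 39. After thinning to 1000 UMIs Chac1 changed sign to 0.13.

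**Figure D5:**
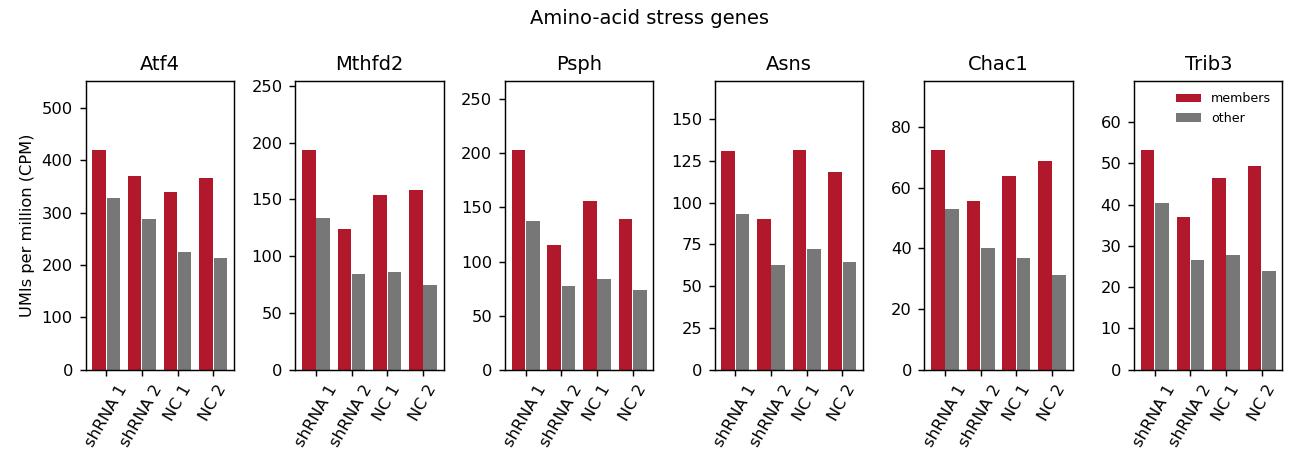
Levels of 6 genes of the amino-acid response in CPM, summed per library, in the Ankrd1-high cells (members, red bars) and the other tumour cells (grey bars) of the 2 Sema4d-shRNA and 2 NC libraries; axes start at 0. Atf4 lies between 339 and 420 CPM in the red bars, and the grey bars stand at 328 and 288 CPM in the Sema4d-shRNA libraries and at 225 and 214 CPM in the NC libraries.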

How the data were processed

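Single cells of transplanted tumours were captured in 4 droplet libraries, and the authors deposited 1 matrix of raw UMI counts per library; per the file headers it was written by PISA 1.0, and the submitters' processing notes name STAR 2.5.1b and the builds GRCh38 and mm10. Every deposited cell had at least 1000 UMIs. Cell names are running labels, so barcodes shared between libraries could not be counted. Counts were summed per library and class (8 sums) and tested with edgeR 4.0.16 (R 4.3.3; quasi-likelihood, robust, TMM, filterByExpr, Benjamini-Hochberg at 0.05), limma 3.58.1 underneath and DESeq2 1.42.0 as an alternative; cells were handled in Python 3.11.15 with scanpy 1.11.5 and scipy 1.17.1. The 11 genes of the gate and the ranking stayed in library sizes and out of the tests. The fits were tested on simulated data. No doublets were removed in the main analysis. The members and lists were chosen with earlier results of these data known.

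Named genes were the 10 called genes with the largest and the 10 with the smallest log2 change at 50 CPM or more and the same direction in all 4 libraries for the comparison of classes, the same at 20 CPM for the genotypes, and the 5 with the smallest p in each direction for the difference; other genes come from 22 lists and were picked by their role, some after their values were seen. Alternatives covered normalization, filter, test, depth, doublets, mitochondrial share, the width and genes of the ranking, the block, each library left out and the next 10%.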

Additional observations from a re-analysis of the deposited data

Results flagged for a closer look

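In 7 of 96 genes the log2 ratio of Ankrd1-high over other tumour cells stood far from the other 3 libraries in 1 library, where 4.8 are expected by chance at 1 in 20. In NC library 1 these were Car9 at -1.17 (others -0.67 to -0.57), Irf7 at -0.30 (others -0.76 to -0.74). In Sema4d-shRNA library 2 these were Dkc1 at 0.92 (others 0.78 to 0.79), Mgp at -0.80 (others -2.16 to -2.04), Tgfb3 at -0.74 (others -1.13 to -1.07). In NC library 2 these were Top2a at 0.75 (others 0.40 to 0.42). In Sema4d-shRNA library 1 these were Wwtr1 at -0.12 (others -0.25 to -0.24).

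By edgeR's test of the difference itself, the genotype difference in the Ankrd1-high cells departed from that in the other tumour cells in 13 genes. These were named for that test or added for their role. Values are the log2 change in the Ankrd1-high cells minus that in the other tumour cells (Sema4d-shRNA over NC). The positive ones were Slpi at 1.47, Fst at 0.98, Cst6 at 0.52 (adjusted p = 0.0022), Igfbp4 at 0.32 (0.0028) and Ecm1 at 0.27 (0.0043). The negative ones were Rsad2 at -0.74 (0.0028), Chac1 at -0.52, Trib3 at -0.47, Mthfd2 at -0.42, Asns at -0.38, Psph at -0.36, Atf4 at -0.35 and Rps12 at -0.20 (0.0043). With a library left out, Ecm1 did not pass without NC library 1 (0.31, adjusted p = 0.065) or NC library 2 (0.25, 0.20), Rsad2 without Sema4d-shRNA library 2 (-0.57, 0.070) and Rps12 without NC library 1 (-0.17, 0.72); with DESeq2 Rps12 did not pass either (-0.20, 0.084). The p of the rest stand with their values above. Psph (-0.36, DESeq2 adjusted p = 0.058) and Asns (-0.38, DESeq2 adjusted p = 0.084) did not pass with DESeq2 either. Their calls were also lost without NC library 1, where both stood at -0.38. Cst6 and Igfbp4 are a secreted protease inhibitor and a carrier of IGFs, and Rsad2 is an interferon-stimulated gene. Outside these 13, Plk2, named above as higher in the Ankrd1-high cells, was also called in the negative direction, at -0.39 (edgeR adjusted p = 0.018).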

How the results depend on the processing

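Against the next 10% of the score, 237 genes were higher (218 shared with the 2779) and 304 lower (291 shared with the 2935). Without the library as a block the counts were 1589 and 1625. After thinning to 3000 UMIs they were 1703 and 1863, and after thinning to 1000 UMIs 798 and 846; ties then made 7577 cells members, and fewer UMIs entered each sum. Leaving out a library gave 2383 to 2530 higher and 2493 to 2742 lower.

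For Sema4d-shRNA against NC in the Ankrd1-high cells, counts of 5 higher and 16 lower became 56 and 85 with no filter on low counts, 27 lower for the top 20% and 8 higher after thinning to 3000 UMIs. Leaving out a library gave 0 to 98 higher and 11 to 105 lower. The replicate numbers do not pair the libraries (r of same-numbered deviations -0.04 in the Ankrd1-high cells and 0.10 in the other tumour cells); the replicate block called 8 higher and 30 lower, 14 of them among the 16. The difference, 39 genes, gave 7 with DESeq2, 3 and 2 after thinning to 3000 and 1000 UMIs, 89 with no filter, 3 against the next 10%, 22 and 13 for the top 20% and 5%, 94 with the replicate block and 38 to 180 with a library left out. The share difference ran from -1.11 to 4.28 percentage points with a library left out. The cause was not tested for any of these beyond fewer counts or samples where the setting makes them.

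Only some genes were followed through every setting, and of these the following log2 changes reversed. Against the next 10% they were H19 (0.025), Egr1 (0.14), Top2a (-0.015), Ccnb1 (-0.024) and, in the difference, Igfbp4 (-0.032). In the difference, Slpi (-0.40) reversed after thinning to 3000 UMIs, and Slpi (-0.29), Rps12 (0.016) and Chac1 (0.13) after thinning to 1000 UMIs. Igfbp3, which was not followed in this way, also reversed against the next 10%, as given above. Selecting the top 10% within each library fixes the share and gives no value for it. Limits are 2 libraries a group, sparse counts of 3 genes per cell, and classes defined by mRNA of the same cells.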
